A study of Mus musculus with 49 samples.

Results

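The 10 genes described here mark T cells: Cd3e, Cd3d and Cd3g, Cd4, Cd8a and Cd8b1, Lck, Il7r, Tcf7 and Lef1. They were taken as a list of symbols, and all 10 were found among the 55487 genes of the deposited count table. Expression had been measured by RNA sequencing in 49 libraries from 6 HuHER2 transgenic mice with palpable mammary tumors, palpated from the age of 7 months, in which a human HER2 transgene was carried in every group. The promoter and the cell type that drive this transgene are not given in the sources used here. The 3 BP mice had received 1 intravenous injection of BP, an iron oxide nanoparticle preparation named by this code, at 5 mg Fe per mouse, and the 3 PBS mice had received PBS. The design text places the collection of organs at 7 days, while a treatment label gives 31 days, so the time of these libraries is uncertain. Each mouse gave 6 bulk (undigested) libraries, from bone marrow, liver, lung, lymph node, spleen and tumor, 36 in all. The other section of each BP organ except lung was dissociated, and cells that carried nanoparticles were pulled out with a magnet. These nanoparticle-associated cells, also called sorted cells here, gave 13 libraries, 3 each for bone marrow, liver, spleen and tumor, and 1 for lymph node, taken in BP mouse 2.

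The T cell antigen receptor reaches the cell surface only together with the CD3 chains, and the products of Cd3e, Cd3d and Cd3g carry the signalling motifs that the kinase Lck phosphorylates once antigen is bound. CD4 and CD8 are coreceptors that bind MHC class II and class I molecules and bring Lck to the receptor; mouse dendritic cells can also carry CD4 or CD8 alpha, while CD8 beta is more restricted to T cells. Il7r encodes the alpha chain of the receptor for interleukin 7, the survival cytokine of naive and memory T cells, and is also used by innate lymphoid cells and by B cell progenitors in the marrow. Tcf7 and Lef1 encode TCF-1 and LEF-1, related DNA-binding factors of the Wnt pathway that act in T cell development and in naive and memory T cells, and LEF-1 is made by B cell progenitors as well. Lymph nodes and spleen are the organs where naive T cells gather.

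The CD3 genes lie side by side on mouse chromosome 9 (GRCm38/mm10, coordinates of the whole gene, counted from 1). Cd3e spans 44998740 to 45009627 on the minus strand, Cd3d 44981786 to 44987339 on the plus strand and Cd3g 44969572 to 44980431 on the minus strand. Cd3d and Cd3g face away from each other with their starts 1355 bases apart, and the nearest ends of Cd3d and Cd3e are 11401 bases apart. Their promoters are shown because these neighbours did not keep the same ratio in every organ, Cd3d exceeding Cd3e by far the most in bone marrow. The stretches are the 250 bases before the gene's start in RefSeq (GRCm38.p6), 5′ to 3′ on the gene's strand. They stand at chr9:45009612-45009861 for Cd3e, chr9:44981536-44981785 for Cd3d and chr9:44980432-44980681 for Cd3g. Capitals mark matches, on either strand, to 4 short motifs: an ETS motif (CAGGAAG), a TCF/LEF motif (CTTTGA), an E-box (CAGNTG) and a RUNX motif (TGTGGT).
Cd3e: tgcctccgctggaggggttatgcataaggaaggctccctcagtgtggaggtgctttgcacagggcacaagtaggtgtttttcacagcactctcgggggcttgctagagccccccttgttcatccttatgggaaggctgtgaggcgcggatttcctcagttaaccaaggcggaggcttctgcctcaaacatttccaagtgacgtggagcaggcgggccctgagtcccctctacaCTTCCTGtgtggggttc
Cd3d: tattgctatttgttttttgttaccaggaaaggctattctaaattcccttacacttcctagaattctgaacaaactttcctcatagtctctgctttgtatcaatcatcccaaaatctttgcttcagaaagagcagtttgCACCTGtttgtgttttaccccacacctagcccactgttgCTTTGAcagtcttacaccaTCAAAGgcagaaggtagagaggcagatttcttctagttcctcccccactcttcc
Cd3g: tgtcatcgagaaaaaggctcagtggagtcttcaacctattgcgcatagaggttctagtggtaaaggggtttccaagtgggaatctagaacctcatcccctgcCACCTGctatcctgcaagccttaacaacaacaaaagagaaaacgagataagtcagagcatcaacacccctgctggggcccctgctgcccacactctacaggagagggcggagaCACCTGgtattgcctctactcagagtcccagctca
In Cd3e the capitals mark 1 ETS match, whose first base lies 17 bases before the start. In Cd3d they mark 2 TCF/LEF matches, 73 and 54 bases before the start, and 1 E-box 112 bases before it. In Cd3g they mark 2 E-boxes, 148 and 35 bases before the start. Among 32851 promoters of the same length, 10.8% held the ETS motif, 13.8% the TCF/LEF motif (1.37% held it at least 2 times), 44.8% the E-box (13.2% at least 2 times) and 14% the RUNX motif. The matches describe these letters and say nothing of binding. RefSeq promoter entries were matched for 8 of the 10 genes, and Cd4 and Cd8b1 had none.

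The coreceptor genes lie on chromosome 6, Cd4 at 124864692 to 124888221 (minus strand), Cd8b1 at 71322788 to 71337494 and Cd8a at 71373427 to 71379173 (both plus strand), the CD8 genes 35933 bases apart. Lck lies on chromosome 4 at 129548344 to 129573641, Il7r on chromosome 15 at 9505788 to 9530176 and Tcf7 on chromosome 11 at 52252371 to 52283014, all on the minus strand. Lef1 lies on chromosome 3 at 131110471 to 131224356, on the plus strand. Cd3e, Lck, Tcf7 and Lef1 overlap other annotated genes (Gm48719 and Gm48720, Mir8119, A630014C17Rik and Gm26551, Gm42449 and Gm43352). The strand setting was not given in the sources used here, so reads of these overlapping genes cannot be told apart with certainty.

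Expected counts summed to between 9.36e+06 and 1.97e+07 per library, so a gene with no read could hold up to 3 counts, or 0.152 to 0.32 CPM (a gene's counts after every library is scaled to the same plain total), counting error alone considered. Replicates are different mice. Genes of the mitochondrial genome took 48.2 to 57.2% of the sorted liver libraries, against 5.67 to 7.06% of the BP bulk livers. They took 28.6% in the lymph node of PBS mouse 2 and 19.5% in the tumor of BP mouse 1, and 1.87 to 11.6% in the other bulk libraries. The tissue labels were borne out by marker genes, with hepatocyte genes summing to 99683 to 127266 CPM in bulk liver, epithelial genes of lung to 55397 to 75399 CPM in lung and mammary epithelial genes to 11043 to 26606 CPM in bulk tumor. Mammary epithelial genes also summed to 88.9 to 2770 CPM in bulk lymph nodes. In bulk tissue, fewer T cells and less RNA per T cell cannot be told apart.

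In PBS mice all 10 genes were highest in lymph node and next highest in spleen, and lowest in liver or tumor. Cd3e had 221, 84.9 and 123 CPM in the lymph nodes of PBS mice 1, 2 and 3, against 57.0, 35.1 and 38.4 CPM in spleen, 4.16, 4.29 and 5.03 CPM in marrow and 3.29, 4.87 and 7.15 CPM in lung. It had 1.1, 1.31 and 1.27 CPM in liver and 0.989, 0.332 and 1.18 CPM in tumor. Lymph node stood above spleen without overlap, spleen above lung without overlap, while lung and marrow overlapped, as did liver and tumor. The spleen mean lay at 28.7 to 45.8% of the lymph node mean over the 10 genes, and libraries of lymph node and spleen did not overlap for 9 of them. The exception was Il7r, at 306, 75.5 and 113 CPM in lymph node against 98.9, 53.7 and 42.0 CPM in spleen. The share of all genes without overlap between lymph node and spleen was not counted, so this count cannot be set against other genes. Means in the other organs reached 1.37 to 23.5% of the lymph node mean in marrow, 2.17 to 6.87% in lung, 0.462 to 2.28% in liver and 0.294 to 3.7% in tumor. An F-test across the 6 organs (edgeR, quasi-likelihood, Benjamini-Hochberg adjustment) called all 10 genes, with adjusted p between 1.32e-11 and 6.26e-07. It called 90.5% of all genes tested, so a difference between organs was the rule in this table.

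**Figure D1:**
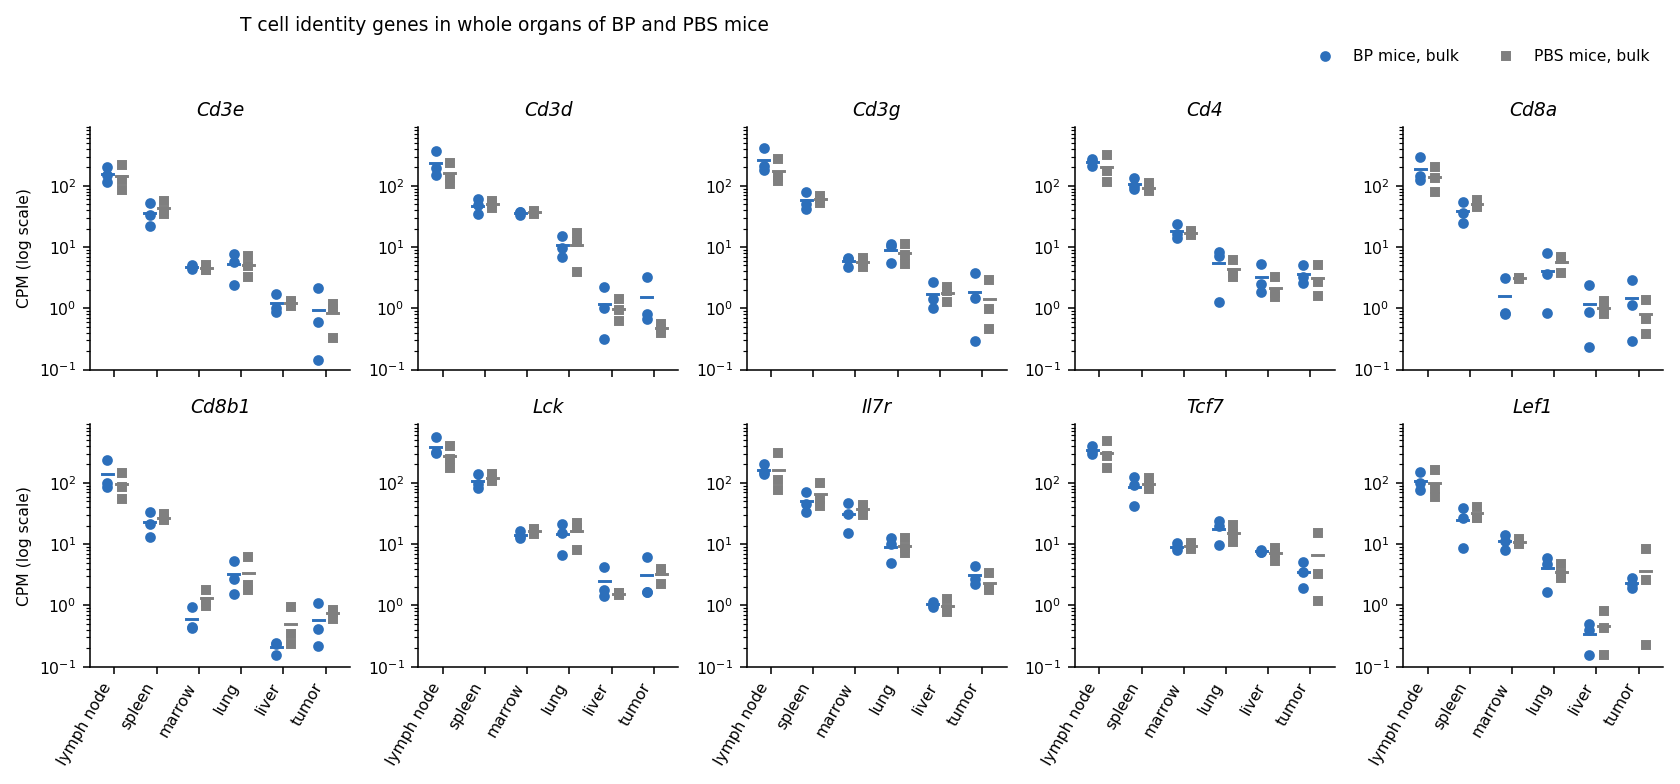
CPM on a log axis of each of the 10 genes in bulk lymph node, spleen, bone marrow, lung, liver and tumor; each point is 1 mouse (BP left, PBS right, n = 3 each) and each short line a group mean. Every gene was highest in lymph node, and BP and PBS points overlapped in each organ and gene except Cd8b1 in marrow and Cd3d in tumor.

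By mean, Cd3e, Cd3g, Cd8a, Cd8b1 and Tcf7 had lung next after spleen, whereas Cd3d, Cd4, Lck, Il7r and Lef1 had bone marrow. Libraries of lung and marrow overlapped for Cd3e, Cd3g, Cd8b1 and Lck, so their order is not settled for these genes. Marrow reached 23.5% of the lymph node mean for Cd3d, 23.2% for Il7r, 11.1% for Lef1 and 8.43% for Cd4. Cd3d had 39.2, 38.0 and 35.3 CPM in the marrow of PBS mice, where Cd3e had 4.16, 4.29 and 5.03 CPM and Cd3g 4.78, 6.00 and 6.53 CPM. These 3 chains enter the same receptor complex. The ratio of Cd3d to Cd3e counts was 11.1 to 18.2 in the 3 marrow libraries of nanoparticle-associated cells and 7.01 to 9.43 in the 6 bulk marrow libraries, against 0.584 to 3.48 in the 31 other libraries with at least 10 counts of each gene. The ratio of Cd3g to Cd3e showed no such gap, at 0.704 to 1.51 in marrow. Per kilobase of exon, Cd3d was the highest of the 10 genes in PBS marrow (20.7 CPM per kilobase), ahead of Il7r (8.20) and Lck (5.57), and Cd3e stood at 1.1 CPM per kilobase.

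**Figure D2:**
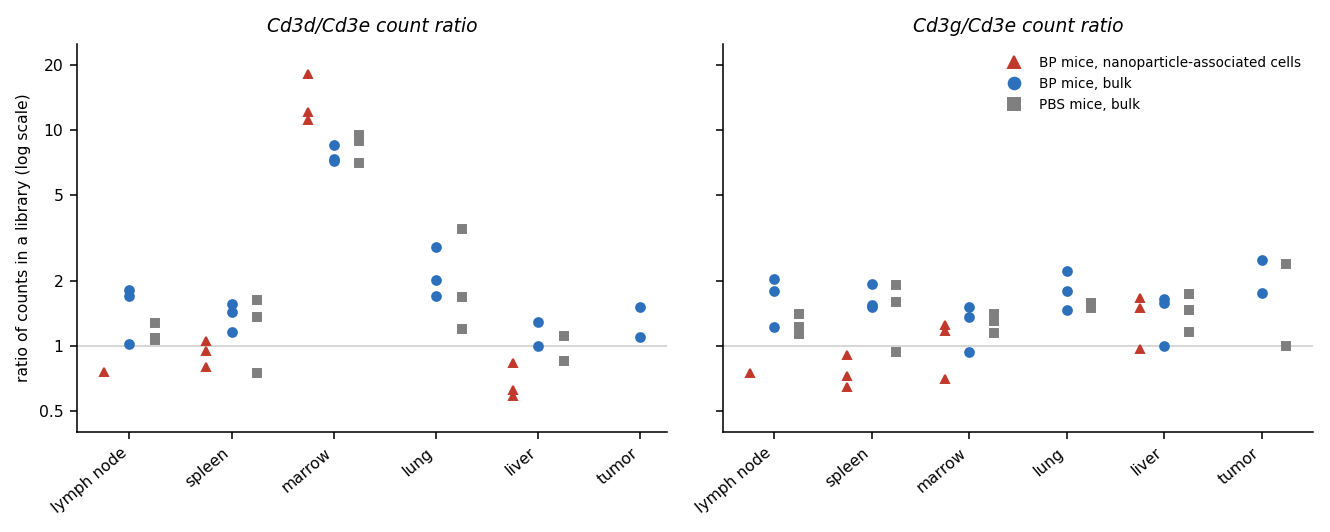
Ratio of Cd3d to Cd3e counts (left panel) and of Cd3g to Cd3e counts (right panel) on a log axis, 1 point per library with at least 10 counts of both genes; triangles are nanoparticle-associated cells, circles BP bulk and squares PBS bulk. The Cd3d to Cd3e ratio was 7.01 or more in every marrow library and 3.48 or less elsewhere.

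Marrow also holds B cell progenitors, and Rag1, which cuts antigen receptor genes in developing lymphocytes, varied widely there. Rag1 had 63.9, 10.4 and 13.2 CPM in nanoparticle-associated marrow cells of BP mice 1, 2 and 3, 83.2, 11.2 and 49.96 CPM in their bulk marrow and 50.4, 61.0 and 38.1 CPM in PBS marrow. Il7r had 39.8, 10.9 and 12.9 CPM in the nanoparticle-associated cells, 47.9, 15.2 and 31.4 CPM in BP bulk marrow and 43.7, 40.6 and 30.4 CPM in PBS marrow. BP mouse 1 was highest and BP mouse 2 lowest for both genes in both kinds of library, and the same held for Lef1, with 18.1, 6.12 and 7.56 CPM in the nanoparticle-associated cells and 14.3, 8.0 and 11.5 CPM in BP bulk marrow. Cd3d had 41.1, 29.0 and 31.5 CPM in the nanoparticle-associated cells, in the same order of mice as Rag1, and 36.8, 33.5 and 36.9 CPM in BP bulk marrow, where BP mouse 2 was again lowest but mouse 1 not highest. Cd3e did not keep this order, at 2.26, 2.61 and 2.59 CPM in the nanoparticle-associated cells and 4.34, 4.67 and 5.01 CPM in BP bulk marrow. Ptcra, which encodes the surrogate receptor chain of developing T cells in the thymus, was at 0 in all 6 bulk marrow libraries, which allows up to 3 counts in each. Siglech, a marker of plasmacytoid dendritic cells, was at 52.1, 57.8 and 35.3 CPM in PBS marrow. The part of these other cell types in the marrow levels was not tested.

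**Figure D3:**
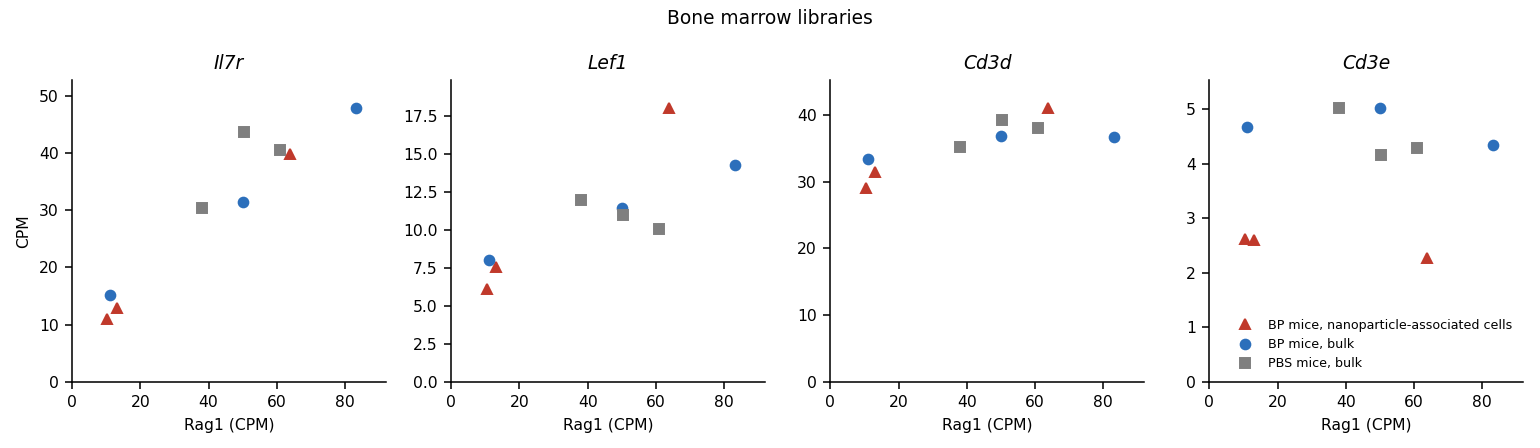
CPM of Il7r, Lef1, Cd3d and Cd3e against CPM of Rag1 in the 9 bone marrow libraries, 1 point per library (triangles nanoparticle-associated cells, circles BP bulk, squares PBS bulk). Il7r and Lef1 were lowest in the libraries with Rag1 between 10.4 and 13.2 CPM, while Cd3e separated by kind of library and not by Rag1.

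Tcf7 departed from the CD3 genes in liver. It had 7.99, 7.53 and 7.34 CPM in BP livers and 5.24, 7.30 and 8.69 CPM in PBS livers, where the other 9 genes had at most 5.30 CPM. Its ratio to Cd3e counts was 1.00 to 1.34 in the sorted liver cells, against 4.33 to 8.55 in BP bulk liver and 4.77 to 6.84 in PBS liver. Tcf7 was also the highest of the 10 genes per kilobase of exon in all 3 tumor groups, at 2.40 CPM per kilobase in nanoparticle-associated cells, 1.35 in BP bulk tumor and 2.49 in PBS tumor, although single PBS tumors spread between 1.18 and 15.1 CPM. That rank was not particular to tumor. Tcf7 also ranked 1 in PBS lymph node (118), sorted lymph node cells (192), sorted spleen cells (30.6) and BP lung (6.74). Its ratio to Cd3e counts was 1.69 to 3.2 in 2 BP bulk tumors and 1 to 15.3 in 2 PBS tumors. In BP bulk lymph nodes it was 1.95 to 2.53.

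The first comparison of the design asked what BP did to whole organs 7 (or 31) days after injection. None of the 10 genes was called in any organ by edgeR's quasi-likelihood test with Benjamini-Hochberg adjustment over all genes of the organ, 1 had an unadjusted p under 0.05, and the replicate spread was wide. Called genes were few altogether: 0% of genes tested in tumor, lung, lymph node, spleen and marrow, and 0.0235% (3 genes) in liver. At an unadjusted p under 0.05 there were 867 genes in tumor, 137 in lung, 554 in lymph node, 108 in spleen, 454 in liver and 184 in marrow, and DESeq2 called 138, 0, 11, 0, 37 and 4 genes in the same organs. DESeq2 called none of the 10 in any organ. Nor did any of the 10 have a BP effect that differed between organs, with adjusted p at 1 for each against 0.0913% of all genes called (17 genes).

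In lymph node, 9 of the 10 genes were on the higher side in BP mice and 1 on the lower, with a median log2 fold change of 0.29 against -0.01 over all genes tested, and no adjusted p was below 0.866. Cd3d had 197, 366 and 151 CPM in BP lymph nodes, against 236, 109 and 134 CPM in PBS lymph nodes. Lck had 317, 553 and 308 CPM in BP lymph nodes, against 408, 176 and 250 CPM in PBS lymph nodes. BP mouse 2 was the highest of the BP mice and PBS mouse 2 the lowest of the PBS mice for all 10 genes, and the groups overlapped for each. PBS mouse 2 is the lymph node with 28.6% mitochondrial counts. Without BP mouse 2 the balance turned to 1 higher and 9 lower, with a median of -0.18. Other cell types shifted in the same lymph nodes. Of the B cell genes 12 of 13 were on the higher side (median log2 fold change 0.59) and of the dendritic cell genes 12 of 12 (0.62), summing to 1872 to 2664 CPM and 418 to 819 CPM in BP nodes, against 1005 to 2039.9 CPM and 217 to 565 CPM in PBS nodes. All 9 adipocyte genes (median -1.19) and all 10 hepatocyte genes (-2.07) were on the lower side, summing to 253 to 6239.6 CPM and 30.8 to 568 CPM in BP nodes, against 2168 to 10526.5 CPM and 640.1 to 1188 CPM in PBS nodes. None of these genes was called, and their part in the T cell gene levels was not tested. On plain CPM the median of all genes stood 0.14 higher in BP lymph nodes on the log2 scale, a shift that the scaling of the fit takes out.

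In spleen the balance ran the other way, with 1 gene on the higher side and 9 on the lower in BP mice (median log2 fold change -0.21, all genes 0.01). Cd3e had 22.0, 33.4 and 51.7 CPM in BP spleens, against 57.0, 35.1 and 38.4 CPM in PBS spleens. Tcf7 had 42.2, 91.4 and 125.3 CPM in BP spleens, against 120, 90.6 and 78.9 CPM in PBS spleens. All groups overlapped, BP mouse 1 was the lowest BP spleen for 9 of the genes, and without it 8 genes stood on the higher side and 2 on the lower, with a median of 0.04. The lowest adjusted p in spleen rounded to 1.00. All 12 neutrophil genes were on the higher side (median log2 fold change 0.60), summing to 1089 to 3429 CPM in BP spleens and 1090.2 to 1947 CPM in PBS spleens, and their part in the T cell gene levels was not tested.

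The lowest unadjusted p of the tested genes in any organ was that of Cd8b1 in bone marrow. Cd8b1, the beta chain of CD8, had 0.443, 0.948 and 0.425 CPM in BP marrow, against 1.16, 1.78 and 0.975 CPM in PBS marrow. The groups did not overlap, which held in this direction for 3.19% of all genes tested, but the difference failed the adjustment (log2 fold change -1.04, SE 0.46, unadjusted p = 0.0473, adjusted p = 1.00). Its partner Cd8a had 0.797, 3.12 and 0.850 CPM in BP marrow, against 3.08, 3.17 and 3.00 CPM in PBS marrow, so 2 BP marrows were low and the other lay among the PBS values. Cd3e, at 4.34, 4.67 and 5.01 CPM in BP marrow and 4.16, 4.29 and 5.03 CPM in PBS marrow, covered the same range in both groups. The 10 genes divided 5 higher and 5 lower.

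Lung held 6 genes on the higher side and 4 on the lower, with a median log2 fold change of 0.04. Without BP mouse 1 all 10 stood on the higher side (median 0.38), and without BP mouse 2 the balance was 2 higher and 8 lower (median -0.22). Cd8a had 0.834, 7.84 and 3.64 CPM in BP lungs, against 3.7, 6.33 and 6.78 CPM in PBS lungs. Il7r had 4.87, 9.89 and 12.4 CPM in BP lungs, against 12.7, 7.30 and 8.52 CPM in PBS lungs. BP mouse 1 had the lowest level of all 10 genes among the BP lungs, and the groups overlapped throughout. In liver, Cd8b1 and Lef1 were too low to be tested, and the other 8 divided into 6 higher and 2 lower, with a median of 0.08, which turned to 1 higher and 7 lower (median -0.23) without BP mouse 2. Cd4 had 2.51, 5.30 and 1.87 CPM in BP livers, against 1.78, 1.54 and 3.21 CPM in PBS livers. The 3 genes called in liver held none of the 10 genes.

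In tumor, Cd3d was too low to be tested, and the other 9 divided into 6 higher and 3 lower in BP mice (median log2 fold change 0.41, all genes -0.05), with no adjusted p below 0.842. Without BP mouse 1 the balance turned to 1 higher and 8 lower, with a median of -0.78. Adipocyte genes (9 of 9 tested on the higher side) summed to 310 to 10360.4 CPM in BP tumors and 19.6 to 218 CPM in PBS tumors, and B cell genes (8 of 8) to 23.5 to 82.0 CPM in BP tumors and 6.79 to 20.2 CPM in PBS tumors. Their part in the T cell gene levels was not tested. Cd3d itself had 3.2, 0.792 and 0.660 CPM in BP tumors, against 0.456, 0.399 and 0.553 CPM in PBS tumors, without overlap, as held for 5.27% of all genes tested in this direction. Cd3g had 3.71, 0.288 and 1.5 CPM in BP tumors, against 0.989, 0.465 and 2.84 CPM in PBS tumors. Cd8a had 2.91, 0.288 and 1.14 CPM in BP tumors, against 0.380, 0.665 and 1.34 CPM in PBS tumors. BP mouse 1 carried the high BP values of the CD3 and CD8 genes, and its tumor is the one with 19.5% mitochondrial counts. BP mouse 2 lay below the lowest PBS tumor for Cd3e, Cd3g, Cd8a and Cd8b1. Levels this low rest on few reads, since 3 counts stand for up to 0.32 CPM.

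A second comparison asked how the cells that carried nanoparticles differed from the whole organ of the same BP mice. Liver and spleen gave opposite answers for 5 of the T cell genes, Cd3d, Cd3g, Cd4, Cd8a and Cd8b1. All 10 genes rose in nanoparticle-associated liver cells, where 37.3% of all genes tested were called higher and 37.5% lower. With the mouse as a block 9 rose and Tcf7 missed the threshold, where 4858 of all 13247 genes tested were called higher and 4896 lower. In spleen 5 genes fell and none rose, where 22% of all genes tested were called lower and 20.2% higher.

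In liver, Lck showed the largest log2 fold change of the genes with more than 3 counts in every bulk liver. It had 16.4, 17.1 and 17.7 CPM in nanoparticle-associated liver cells of BP mice 1, 2 and 3, against 1.80, 4.22 and 1.41 CPM in bulk liver of the same mice. Its log2 fold change was 3.68 (SE 0.36, adjusted p = 1.72e-05). The lowest of the sorted libraries stood far above the highest bulk liver. Cd3e had 5.00, 7.54 and 7.06 CPM in the sorted cells, against 1.02, 1.74 and 0.859 CPM in bulk (log2 fold change 3.35, SE 0.41, adjusted p = 6.9e-05). Cd3g had 8.32, 11.2 and 6.78 CPM in the sorted cells, against 1.02, 2.73 and 1.41 CPM in bulk (log2 fold change 3.27, SE 0.42, adjusted p = 9.26e-05). Cd3d had 2.92, 6.30 and 4.40 CPM in the sorted cells, against 1.02, 2.23 and 0.312 CPM in bulk (log2 fold change 2.90, SE 0.62, adjusted p = 0.00222). The 3 CD3 genes were thus higher in every sorted library than in any bulk liver. The scaling of the fit raised log2 fold changes in sorted liver cells by a median of 0.81 over plain CPM ratios. The fitted fold changes given for liver therefore exceed the ratios of the CPM values beside them.

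Lef1 had 1.53, 2.51 and 2.57 CPM in nanoparticle-associated liver cells, against 0.157, 0.497 and 0.390 CPM in bulk, the lowest of which is 2 counts (log2 fold change 3.53, SE 0.55, adjusted p = 0.000335). Cd8b1 had 0.845, 2.45 and 1.28 CPM in the sorted cells, against 0.157, 0.248 and 0.234 CPM in bulk, which is 2 or 3 counts per bulk library and no more than an undetected gene could hold, so no fold is given (adjusted p = 0.00097). Il7r had 4.16, 7.86 and 4.22 CPM in the sorted cells, against 0.940, 1.16 and 1.02 CPM in bulk (log2 fold change 3.32, SE 0.47, adjusted p = 0.000164). These 3 genes did not overlap between sorted and bulk libraries either. Cd4 had 7.60, 8.27 and 4.58 CPM in the sorted cells, against 2.51, 5.30 and 1.87 CPM in bulk (log2 fold change 1.98, SE 0.40, adjusted p = 0.00163). Cd8a had 2.40, 7.80 and 1.74 CPM in the sorted cells, against 0.862, 2.40 and 0.234 CPM in bulk (log2 fold change 2.82, SE 0.83, adjusted p = 0.0123). Both overlapped on CPM, and Cd8a rested on nanoparticle-associated cells of mouse 2, without which its log2 fold change was 1.51 and its adjusted p 0.0613.

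Tcf7 was the weakest of the 10 in liver. It had 5.26, 10.1 and 7.06 CPM in nanoparticle-associated cells, against 7.99, 7.53 and 7.34 CPM in bulk, a ratio of means of 0.983. The fitted log2 fold change was 0.92 (SE 0.36, adjusted p = 0.0438), and it depended on the scaling between libraries, since on plain CPM the median gene stood at a log2 ratio of -0.81 in the sorted liver cells. With the mouse as a block the adjusted p was 0.0503, with mitochondrial genes left out 0.0523 and without nanoparticle-associated cells of mouse 2 it was 0.236. The call was lost in 5 of the 6 fits with a library left out. In all, 7 of the 10 genes did not overlap on plain CPM, a pattern that 20% of all genes tested showed in this direction. The median log2 fold change was 3.30, against 0.01 over all genes tested.

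Other cell types moved with these genes in liver. Ptprc, the leukocyte common antigen CD45, averaged 91.4 ± 14.0 CPM in nanoparticle-associated liver cells and 18.4 ± 5.54 CPM in bulk (SD, n = 3 each; log2 fold change 3.2, SE 0.27). The ratio of Cd3e to Ptprc counts was 0.052 to 0.093 in the sorted cells and 0.061 to 0.071 in bulk, so the ranges overlapped. Lck to Ptprc stood at 0.168 to 0.234 in the sorted cells and 0.101 to 0.172 in bulk, and Cd8a to Ptprc at 0.023 to 0.077 in the sorted cells and 0.052 to 0.098 in the 2 bulk livers with at least 10 counts of both genes. Tcf7 to Ptprc did not overlap, at 0.054 to 0.10 in the sorted cells and 0.306 to 0.528 in bulk. Of the B cell genes 11 of 12 tested rose and 1 fell, of the neutrophil genes 11 of 11 rose, of the endothelial genes 8 of 8 rose and of the hepatocyte genes 9 of 10 fell. Of all genes tested 37.3% were called higher and 37.5% lower. Hepatocyte genes still summed to 12730 to 24555 CPM in the sorted cells, against 99683 to 115942 CPM in bulk. The part of these cell types in the result was not tested.

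**Figure D4:**
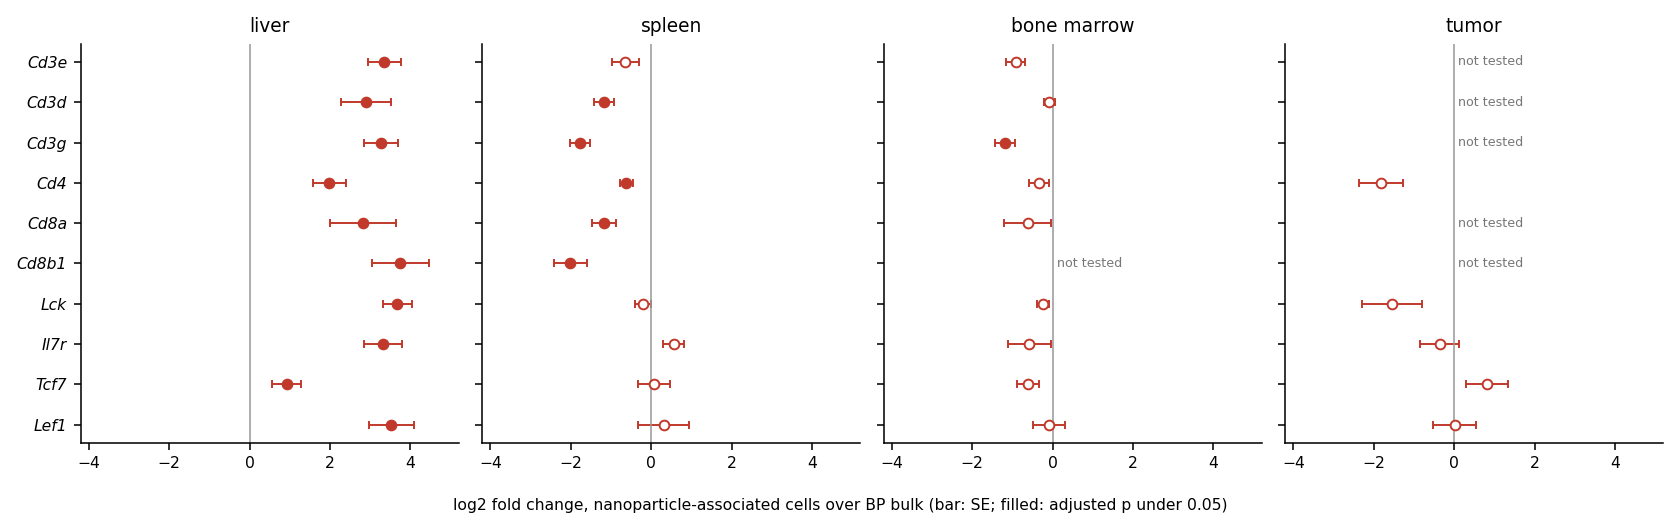
Log2 fold change of nanoparticle-associated cells over BP bulk tissue for the 10 genes in liver, spleen, bone marrow and tumor (edgeR, 3 libraries of each kind per organ; bars are 1 standard error, filled points have an adjusted p under 0.05). All 10 points lay right of 0 in liver, 5 filled points lay left of 0 in spleen and 1 in marrow, and no filled point appeared in tumor. The liver point of Cd8b1 rests on 2 or 3 counts in each bulk library.

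In spleen Cd3d, Cd3g and all 3 coreceptor genes fell, while Cd3e, Lck, Il7r, Tcf7 and Lef1 did not pass the test. Cd3g had 14.7, 15.1 and 15.1 CPM in nanoparticle-associated spleen cells, against 42.4, 50.5 and 79.9 CPM in bulk spleen of the same mice (log2 fold change -1.76, SE 0.25, adjusted p = 0.00228). Cd8b1 had 3.56, 5.11 and 6.23 CPM in the sorted cells, against 13.1, 21.7 and 33.5 CPM in bulk (log2 fold change -2.01, SE 0.40, adjusted p = 0.00818). Cd3d had 17.0, 16.6 and 22.1 CPM in the sorted cells, against 34.2, 47.8 and 60.005 CPM in bulk (log2 fold change -1.18, SE 0.25, adjusted p = 0.00996). Every sorted library was below every bulk library for these 3 genes. Cd8a had 13.3, 13.6 and 17.9 CPM in the sorted cells, against 24.9, 36.1 and 53.5 CPM in bulk (log2 fold change -1.18, SE 0.30, adjusted p = 0.0197). Cd4 had 71.0, 48.3 and 69.1 CPM in the sorted cells, against 101, 89.6 and 135 CPM in bulk (log2 fold change -0.61, SE 0.17, adjusted p = 0.026). Both also stood apart without overlap, as did 34.3% of all genes tested in this direction. The calls of Cd4 and Cd8a were lost when single libraries were left out, with adjusted p between 0.0510 and 0.0818 for Cd4 (without nanoparticle-associated cells of mouse 1, 2 or 3 or bulk of mouse 3) and between 0.0503 and 0.0666 for Cd8a (without nanoparticle-associated cells of mouse 1 or 2 or bulk of mouse 2 or 3).

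Cd3e did not pass the test in spleen. It had 16.2, 20.8 and 23.4 CPM in nanoparticle-associated spleen cells, against 22.0, 33.4 and 51.7 CPM in bulk, and its log2 fold change of -0.64 (SE 0.33) missed the threshold with an adjusted p of 0.166. With the mouse as a block it was -0.59 with an adjusted p of 0.0191. Il7r had 72.4, 54.3 and 70.8 CPM in the sorted cells, against 33.6, 45.2 and 71.3 CPM in bulk, a log2 fold change of 0.56 (SE 0.26, adjusted p = 0.129) that passed with the block (0.62, adjusted p = 0.031) and without bulk of mouse 3 (adjusted p = 0.033). The block called 7 of the 10 genes in all, 1 higher and 6 lower. Of all 15026 genes tested it called 4034 higher and 4088 lower. Lck had 91.2, 71.9 and 86.8 CPM in the sorted cells, against 83.9, 96.7 and 142 CPM in bulk (adjusted p = 0.462). Tcf7 had 66.3, 75.0 and 99.6 CPM in the sorted cells, against 42.2, 91.4 and 125.3 CPM in bulk (adjusted p = 0.912). Lef1 had 11.5, 35.2 and 33.1 CPM in the sorted cells, against 8.64, 26.4 and 38.6 CPM in bulk (adjusted p = 0.729). For these 3 genes the sorted and bulk libraries overlapped. The median log2 fold change of the 10 genes was -0.63, against -0.04 over all genes tested, and on plain CPM the median of all genes was -0.21.

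Ratios within a library do not depend on scaling, and 5 of them separated the sorted cells from the bulk spleens of BP mice. Cd3g to Cd3e counts stood at 0.645 to 0.906 in nanoparticle-associated cells and at 1.51 to 1.93 in BP bulk, and Cd3d to Cd3e at 0.797 to 1.05 in nanoparticle-associated cells and 1.16 to 1.56 in BP bulk. Cd8b1 to Cd8a stood at 0.268 to 0.377 in nanoparticle-associated cells and 0.527 to 0.626 in bulk. In the other direction, Tcf7 to Cd3e stood at 3.61 to 4.26 in nanoparticle-associated cells and 1.92 to 2.74 in bulk, and Il7r to Cd3e at 2.61 to 4.46 in nanoparticle-associated cells and 1.35 to 1.53 in bulk. Against PBS bulk spleens Cd3d to Cd3e did overlap, at 0.747 in PBS mouse 1, and the other 4 ratios did not. Lck to Cd3e overlapped between sorted and BP bulk spleens (3.46 to 5.62 in nanoparticle-associated cells and 2.74 to 3.82 in bulk), and so did Lef1 to Cd3e (0.707 to 1.69 in nanoparticle-associated cells and 0.393 to 0.792 in bulk) and Cd4 to Cd8a (3.56 to 5.33 in nanoparticle-associated cells and 2.48 to 4.04 in bulk). Ptprc, at 659 ± 123 CPM in nanoparticle-associated cells and 882 ± 154 CPM in bulk (SD, n = 3 each), did not pass the test (adjusted p = 0.213). Cd3g to Ptprc counts separated as well, at 0.018 to 0.026 in the sorted cells and 0.048 to 0.077 in BP bulk. Il7r to Ptprc separated in the other direction, at 0.090 to 0.120 in the sorted cells and 0.038 to 0.069 in BP bulk. Cd3e, Tcf7, Lck and Cd8a to Ptprc overlapped.

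The single lymph node library of nanoparticle-associated cells allows no test, and its values compare 1 library with the bulk node of the same mouse and the range of the 3 BP nodes. Cd3g had 105 CPM (95% Poisson interval 98.5 to 112, counting error alone) in the nanoparticle-associated cells, against 410 CPM in bulk of the same mouse, a ratio of 0.256. Cd8b1 had 48.2 CPM (43.9 to 52.8) against 239 CPM in bulk, a ratio of 0.202. Cd8a had 70.5 CPM (65.3 to 76.0) against 290 CPM in bulk, a ratio of 0.243. Cd3d had 106 CPM (99.7 to 113) against 366 CPM in bulk, a ratio of 0.290. These 4 genes lay below the whole range of the BP nodes. Il7r had 340 CPM (329 to 352) against 200 CPM in bulk (ratio 1.70), while Lef1 had 238 CPM (228 to 247) against 152 CPM in bulk (ratio 1.57). Tcf7 had 504 CPM (490 to 519) against 394 CPM in bulk (ratio 1.28), and these 3 genes lay above the range of the BP nodes. Cd3e was within that range at 141 CPM, against 202 CPM in bulk (ratio 0.698). Cd4 at 197 CPM (ratio 0.713) and Lck at 299 CPM (ratio 0.540) lay just below it. The share of all genes outside that range was not counted, so these positions cannot be set against those of other genes. Cd3g to Cd3e counts stood at 0.746 in the sorted library, against 1.22 to 2.04 in BP bulk nodes, and Il7r to Cd3e at 2.42 in the sorted library, against 0.949 to 1.3 in BP bulk nodes. Alb, a hepatocyte gene, stood at 418 CPM in the sorted library and at 7.80 CPM in bulk of the same mouse, and the range over BP nodes reached 281 CPM.

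**Figure D5:**
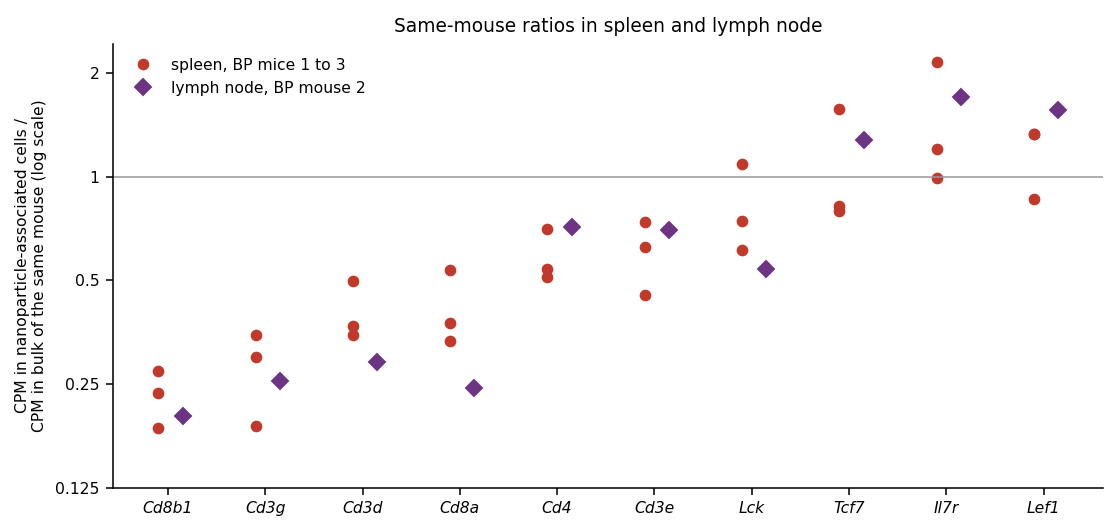
Ratio of CPM in nanoparticle-associated cells to CPM in bulk tissue of the same BP mouse, on a log axis, for the 10 genes; circles are the spleens of the 3 BP mice and diamonds the lymph node of BP mouse 2. Cd8b1, Cd3g, Cd3d and Cd8a were lowest in each of these mice and both organs, and Il7r, Lef1 and Tcf7 highest, in an order that differed between mice.

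Genes of the immediate early and heat shock response, which are known to rise while tissue is digested to single cells, separated the sorted libraries from the bulk ones in each of the 5 organs with both. They summed to 5931 to 15228 CPM in nanoparticle-associated spleen cells, against 1404 to 2079 CPM in bulk spleen, and to 9616 CPM in the lymph node library, against 1645 to 2065 CPM in BP bulk nodes. They summed to 6280 to 10623 CPM in the sorted liver cells against 1135 to 1274 CPM in bulk, to 8140 to 11200 CPM in the sorted tumor cells against 1496 to 2493 CPM in bulk, and to 2611 to 2852 CPM in the sorted marrow cells against 1155 to 1341 CPM in bulk. Of the 13 genes, 13 rose in liver, 12 in spleen, 11 in marrow and 11 in tumor. The bulk tissue was not digested, so carrying nanoparticles and being digested and sorted cannot be told apart in any of these differences.

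In bone marrow 1 of 9 tested genes fell, where 2.9% of all genes tested were called lower. Cd3g had 2.81, 3.06 and 1.83 CPM in nanoparticle-associated marrow cells, against 6.55, 6.37 and 4.67 CPM in bulk (log2 fold change -1.19, SE 0.25, adjusted p = 0.0267). Cd3e had 2.26, 2.61 and 2.59 CPM in the sorted cells, against 4.34, 4.67 and 5.01 CPM in bulk (log2 fold change -0.92, SE 0.23, adjusted p = 0.0509, or 0.0329 with the mouse as a block). Tcf7 had 7.72, 3.60 and 6.53 CPM in the sorted cells, against 8.86, 10.3 and 8.16 CPM in bulk. These 3 genes did not overlap between the kinds of library, as held for 12.7% of all genes tested in this direction. Cd3g lost its call in 5 of the 6 fits with a library left out (adjusted p 0.0525 to 0.112), the exception being nanoparticle-associated cells of mouse 1. Cd3d, by contrast, had 41.1, 29.0 and 31.5 CPM in the sorted cells, against 36.8, 33.5 and 36.9 CPM in bulk (adjusted p = 0.763). Cd8b1 was too low to be tested.

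In tumor none of the 5 genes that could be tested was called, where edgeR called 9.04% of all genes tested. An unadjusted p under 0.05 was found for 1 of the 5, and for 4651 of all 14615 genes tested. DESeq2 called 1 of the 5, and 3303 genes in all. Cd4 had 1.11, 0.716 and 1.37 CPM in nanoparticle-associated tumor cells, against 5.09, 2.59 and 3.24 CPM in bulk (log2 fold change -1.82, SE 0.54, adjusted p = 0.0743, or 0.0184 by DESeq2). Lck had 1.35, 1.22 and 0.978 CPM in the sorted cells, against 6.25, 1.66 and 1.68 CPM in bulk (adjusted p = 0.202). Both stood lower in every sorted library than in any bulk tumor, as did 19.1% of all genes tested. Cd3e had 0.430, 0.143 and 0.456 CPM in the sorted cells, against 2.11, 0.144 and 0.600 CPM in bulk, and Cd3d was at 0 in 1 sorted library, which allows up to 3 counts there. The 3 CD3 genes, Cd8a and Cd8b1 were too low to be tested. Ptprc was also on the lower side, at 14.2 ± 1.35 CPM in the sorted cells and 30.1 ± 5.70 CPM in bulk (SD, n = 3 each, adjusted p = 0.0662).

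Whether the difference between sorted and bulk libraries was the same in the 4 organs was tested with an interaction term over tumor, spleen, liver and marrow. It was called for 9 of the 10 genes, where 58.3% of all genes tested were called. The adjusted p was lowest for Lck (1.72e-05) and Cd3g (2.87e-05), and Tcf7 was not called (adjusted p = 0.146). The libraries of 1 mouse from different organs are not independent, and this fit treats them as if they were.

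Of 42 further genes of T cell receptor signalling, T cell factors and naive T cell homing, none was called in BP against PBS tissue of any organ. The lowest unadjusted p among them was that of Trdc, the constant region of the delta chain of the receptor of gamma delta T cells, in lymph node, at 22.3 ± 6.32 CPM in BP mice and 11.1 ± 3.93 CPM in PBS mice (SD, n = 3 each; unadjusted p = 0.00934, adjusted p = 0.866). In the same comparison 36 of 42 were on the higher side in lymph node and 16 of 42 in spleen. Of those tested, 22 of 24 were on the higher side in tumor, 25 of 41 in lung, 11 of 25 in liver and 12 of 39 in marrow.

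Between nanoparticle-associated cells and bulk spleen, 9 of the 42 rose and 14 fell, where 20.2% of all genes tested were called higher and 22% lower. With the mouse as a block 11 rose and 18 fell, where 4034 of all 15026 genes tested were called higher and 4088 lower. Ccr7, the chemokine receptor that leads naive lymphocytes and mature dendritic cells into T cell zones, averaged 799 ± 111 CPM in the sorted cells and 104 ± 27.7 CPM in bulk (log2 fold change 3.13, SE 0.23, adjusted p = 0.00034). Satb1, a chromatin organizer of T cells, averaged 527 ± 17.5 CPM in the sorted cells and 100 ± 15.8 CPM in bulk, and Fyn, a kinase related to Lck, 451 ± 128 CPM in the sorted cells and 85.1 ± 12.1 CPM in bulk. All 3 were higher by several fold. Themis, needed in thymocyte selection, averaged 4.87 ± 1.41 CPM in the sorted cells and 18.2 ± 8.10 CPM in bulk (log2 fold change -1.72, SE 0.41, adjusted p = 0.0151). Trbc1, a constant region of the receptor's beta chain, averaged 16.3 ± 3.53 CPM in the sorted cells and 59.1 ± 16.7 CPM in bulk (log2 fold change -1.69, SE 0.22, adjusted p = 0.00192), and Ptprcap, a partner of CD45, 65.0 ± 18.6 CPM in the sorted cells and 233 ± 52.3 CPM in bulk.

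In liver 34 of 39 tested genes of this list rose in nanoparticle-associated cells and 3 fell. Of all genes tested there 37.3% were called higher and 37.5% lower. Cd40lg, the ligand by which helper T cells activate B cells, averaged 7.84 ± 4.20 CPM in the sorted cells and 0.0276 ± 0.0478 CPM in bulk, below the level of 3 counts in each bulk library, so no fold is given. Ccr7 averaged 30.9 ± 9.74 CPM in the sorted cells and 0.771 ± 0.200 CPM in bulk (log2 fold change 6.23, SE 0.46), and Satb1 29.9 ± 12.9 CPM in the sorted cells and 0.911 ± 0.428 CPM in bulk (6.01, SE 0.61). Tbx21, the factor of type 1 helper cells and natural killer cells, had a log2 fold change of 5.00 (SE 0.59) and the costimulatory receptor Cd28 one of 4.98 (SE 0.72). The genes that fell included Zbtb7b and Tox, named after their values were seen. Zbtb7b averaged 12.0 ± 4.43 CPM in the sorted cells and 63.0 ± 7.06 CPM in bulk, and Tox 1.83 ± 0.589 CPM in the sorted cells and 7.72 ± 1.26 CPM in bulk. In marrow, Runx3, a factor of CD8 T cells, rose (34.7 ± 4.99 CPM in the sorted cells and 24.4 ± 1.78 CPM in bulk, adjusted p = 0.0477), and in tumor Fyn rose (57.6 ± 6.04 CPM in the sorted cells and 27.7 ± 11.6 CPM in bulk, adjusted p = 0.0496), each the only gene of the list called there. Over all genes, 651 of 13573 tested were called higher in marrow and 858 of 14615 in tumor. With the mouse as a block none of the list was called in tumor, and 5 rose and 5 fell in marrow. Of all genes tested, the block called 1594 higher and 1125 lower in marrow, and 449 higher and 176 lower in tumor.

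Over the 17 group means, the genes outside the list whose log2(CPM + 1) followed the mean of the CD3 genes most closely were Trbc1 (Pearson's r = 0.990), Cd96 (0.988), Skap1 (0.987), Lat (0.986), Nsg2 (0.985), Cd6 (0.984), Cd27 (0.983), Trbc2 (0.978), Gimap3 (0.976) and Txk (0.976), out of 14470 genes. Trbc1 and Trbc2 encode constant regions of the T cell receptor's beta chain, Lat and Skap1 adaptors of its signalling, Cd6 and Cd27 surface receptors and Txk a kinase. Of the 10 genes themselves, Lck ranked 5 and Cd4 29, while Lef1 ranked 81 and Tcf7 84. The group means share organs and mice, so these values describe a pattern over organs and carry no p.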

How the data were processed

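The authors deposited 1 table of expected counts, which are estimated numbers of reads per gene. Per the submitters' processing notes, the tools were RSEM 1.3.1, STAR 2.7.9a, cutadapt 3.5 and FastQC 0.11.9, with the build mm10. Strand setting and annotation release are not given in the sources used here. Of 55487 genes, 55141 matched a symbol. CPM values come from scaling each library's plain total to the same sum, and precision rests on totals of 9.36e+06 to 1.97e+07 per library; intervals and floors cover counting error alone. No replicate pair agreed within sampling noise (chi-square per degree of freedom of at least 8.43).

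Counts were rounded and tested with edgeR 4.0.16 in R 4.3.3 (filterByExpr at a minimum of 10 counts, TMM scaling, two-sided quasi-likelihood F-test, threshold of 0.05 on p adjusted by Benjamini-Hochberg over all genes tested), on the 6 libraries of each organ: BP against PBS bulk, and nanoparticle-associated cells against BP bulk. Organ levels and interactions were tested in joint fits. Errors are SD for CPM and standard errors for log2 fold changes. The fitting step was tested on simulated data. Alternatives were RLE size factors, no filter, DESeq2 1.42.0, mitochondrial genes left out, a spread shared over 48 libraries, a replicate block and each library left out.

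Nanoparticle-associated cells and BP bulk tissue come from the same animals. The correlation of same-mouse deviations was -0.05, 0.39 and 0.29 in tumor, 0.37, 0.62 and -0.19 in spleen, 0.13, 0.064 and 0.018 in liver and -0.083, 0.40 and -0.081 in marrow. BP and PBS mice share only replicate numbers.

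The 10 genes and all lists were chosen with earlier results of these data known. All 10 are named. Of the 42 T cell receptor signalling genes, up to 6 called genes with the largest change per comparison are named, and other lists are counted, with single markers shown beside a result. Some genes that this rule would name are not reported here. Coordinates are from GENCODE M21, on GRCm38.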

Additional observations from a re-analysis of the deposited data

Results flagged for a closer look

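For 9 of the 10 genes the difference between nanoparticle-associated cells and BP bulk tissue varied between tumor, spleen, liver and marrow by an F-test of the interaction (edgeR, adjusted p under 0.05), and these 9 are listed for that reason. The adjusted p was 0.000251 for Cd3e, 0.000396 for Cd3d and 2.87e-05 for Cd3g among the CD3 genes. Among the coreceptor genes it was 0.000125 for Cd4, 0.00384 for Cd8a and 7.2e-05 for Cd8b1. It was 1.72e-05 for Lck, 0.00104 for Il7r and 0.0129 for Lef1. By the same test 10072 of all 17281 genes tested (58.3%) were called. The fit treats libraries of the same mouse from different organs as independent, which they are not. All 9 listed genes were higher in the sorted cells of liver. In spleen Cd3d, Cd3g, Cd4, Cd8a and Cd8b1 were lower, and in marrow Cd3g was. Cd8a missed the threshold without BP mouse 3 (adjusted p = 0.0544), and Lef1 without BP mouse 2 (0.126) or BP mouse 3 (0.179). The digestion and sorting that every sorted sample underwent was shared by the 4 organs, and its part in the result was not tested.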

How the results depend on the processing

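The reach of these results is set by 3 mice per group and, in tumor, liver and marrow, by genes at a few counts per library. No called gene of the 10 changed sign under any alternative. In BP against PBS tissue none of the 10 was called under any alternative, the replicate block included (0 of the 10 in each of the 6 organs), and most of those not called turned sign under some alternative (8 of 9 in tumor, 9 of 10 in lung and in lymph node, 7 of 10 in spleen and in marrow, 8 of 8 in liver). Correlations between BP and PBS mice that share a number were mixed, from -0.258 to 0.462 over the 6 organs, and in no organ did all 3 samples correlate best with their own number. Over the single-gene values followed across alternatives, 498 stayed on their side of the threshold, 29 lost and 7 gained a call. These values left out BP against PBS tissue in tumor, lung, lymph node, spleen and liver. In some other comparisons they covered only part of the 10 genes, so they are not a total of calls gained or lost. The causes of the changes below were not tested.

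Genes called in BP against PBS tissue numbered 138 (DESeq2) and 1482 (spread shared over 48 libraries) in tumor, 11 and 1 by the same settings in lymph node, 49 with no filter and 37 by DESeq2 in liver, and 27 with no filter and 4 by DESeq2 in marrow. With each library left out they ran between 0 and 1 in lung, 1 and 9 in liver and 0 and 1 in marrow. The BP effect differed between organs for 75 genes with no filter, 402 by DESeq2 and 0 to 444 with a mouse left out.

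For nanoparticle-associated cells in tumor, 3303 genes were called by DESeq2, 625 with the replicate block, 5770 with the shared spread and 20 to 1935 with a library left out (20 without nanoparticle-associated cells of mouse 1, 51 without those of mouse 2); of the 10 genes DESeq2 called 1 and the shared spread 6. In spleen the shared spread called 2 of the 10 and fits with a library left out 3 to 5. In marrow 2719 genes were called with the block, 373 with the shared spread and 289 to 1899 with a library left out, and of the 10 genes 2, 0 and 0 to 1. In liver 8 to 10 of the 10 stayed called with a library left out. For spleen and liver the numbers of all genes called under these settings are not given here. The counts of the 10 genes there cannot be set against genes in general. The interaction over organs called 6193 to 7038 genes with a mouse left out, against 10072.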

Other observations

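Genes of other immune cells also differed between nanoparticle-associated cells and BP bulk tissue. In spleen, where 20.2% of all genes tested were called higher and 22% lower, 7 of 13 tested B cell genes fell and 1 rose, and their sum was 2234 to 3350 CPM in the sorted cells against 4290 to 6648 CPM in bulk. Of 16 macrophage genes 5 fell in spleen and none rose, with sums of 1408 to 3855 CPM in the sorted cells and 4302 to 6388 CPM in bulk. With the mouse as a block 10 macrophage genes fell, where 4088 of all 15026 genes tested were called lower. Natural killer and innate lymphoid genes split into 5 that rose and 6 that fell of 14, and of 12 neutrophil genes 5 rose and none fell.

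In liver, where 37.3% of all genes tested were called higher and 37.5% lower, 10 of 12 dendritic cell genes rose, 10 of 11 natural killer and innate lymphoid genes rose and 1 fell, and 9 of 16 macrophage genes rose and none fell. In marrow, where 2.9% of all genes tested were called lower, 2 of 17 B cell genes fell and none rose. With the mouse as a block 10 B cell genes fell in marrow, where 1125 of all 13573 genes tested were called lower. In tumor, where 9.04% of all genes tested were called in either direction, 7 of 13 macrophage genes fell and 1 rose, 3 of 9 dendritic cell genes fell and 6 of 8 adipocyte genes fell. With the mouse as a block 6 macrophage genes, no dendritic cell gene and 4 adipocyte genes fell in tumor. This block called 176 of all 14615 genes tested lower. In BP against PBS tissue, 2 of 16 macrophage genes rose in liver, where 0.0235% of all genes tested (3 genes) were called. With the replicate block 1 macrophage gene rose, of 2 genes called higher in all. No gene of the other lists was called in any organ.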
